A study of Homo sapiens with 6 samples.

Results

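NQO1, MAFG, STEAP3 and FTH1 are 4 genes of the NRF2 response and of iron handling, and they were followed through all 6 RNA libraries of a study of LX-2 cells, a human line of hepatic stellate cells, the source of scar matrix in a fibrotic liver. The wild-type cells were treated for 24 h with FEBJ (an extract of Brucea javanica fruit, which contains many compounds), with cynaroside, a plant flavone glucoside, or with the solvent DMSO. There were 2 libraries of total RNA per group, and the labels gave no doses. LX-2 is a single immortalized line, and separate cultures behind the 2 libraries of a group are not stated. The p-values therefore measure only the spread between these libraries, which may be technical. That spread is estimated from all groups and all tested features together. A very small p-value thus does not rest on the 2 libraries per group of that gene alone. In bulk RNA, a change in the share of cells that carry a transcript cannot be told apart from a change in its amount per cell.

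NRF2 is a transcription factor that pairs with small MAF proteins on antioxidant response elements and switches on detoxifying and iron-binding genes. Its level is held down by KEAP1, which hands it to a CUL3 ubiquitin ligase, and electrophiles or oxidants free it from that brake. NQO1 is an NAD(P)H quinone reductase and one of the most widely used NRF2 targets, and MAFG is a small MAF partner that is itself a target. STEAP3 is an endosomal ferrireductase that turns ferric iron from transferrin into ferrous iron, and FTH1 is the heavy chain of ferritin, the protein cage that stores iron as the ferric form. Ferritin is also under translational control by cellular iron, which RNA levels do not show.

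The 4 genes were chosen by name, with earlier results of these data known. Each was read from a row on the other strand, because such rows held far more counts than the genes' own rows. Each library had 1599000 to 4709317 counts in gene rows, or 5.48 to 6.12% of its total, and 87.4 to 88.3% lay outside every feature. The strand setting of the counting and the annotation release are not given in the sources used here. MT-ND6, the mitochondrial mRNA on the other strand from the remaining ones, took 50.3 to 73.8% of what the 13 mitochondrial mRNA rows counted. In the opposite-strand reading, non-coding rows with exons at least 50 bp opposite to exactly 1 gene were summed for that gene, which gave 1699 genes, of which 1443 had enough counts to be tested. NQO1, MAFG and STEAP3 are 3 of these. FTH1 has no such row and was read from the protein-coding row of BEST1, on the scale of the deposited table of 62754 rows. A wider reading that also takes protein-coding rows held 2623 genes, among them all 4. Of the 12 stellate cell and fibroblast markers listed, 6 had an opposite row, and these summed to 69392 to 205204 counts per library, against 897 to 6392 for the 3 such rows of 7 epithelial markers and 0 to 7 for the 1 of 8 hepatocyte markers. In their own rows the stellate markers summed to 234 to 3808 counts, below the 968 to 6686 of the epithelial ones. The own rows of the 7 endothelial markers summed to 247 to 702 counts, those of the 7 macrophage markers to 8 to 43 and those of the hepatocyte markers to 0 to 43. The part of other cell types in the results was not tested.

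The overlap decides what each row can say, and it was taken from GENCODE release 29. NQO1 lies on the minus strand of chromosome 16 (ENSG00000181019). Its row, the antisense gene ENSG00000261602, has 575 bp of exons, and all of them face the 3′ UTR of NQO1. MAFG lies on the minus strand of chromosome 17 (ENSG00000197063), and its row, the antisense gene ENSG00000264769, has 563 bp of exons. Of these, 224 bp face MAFG exons, 195 bp in the coding sequence and 29 bp in the 5′ UTR, and the other 339 bp face MAFG introns. STEAP3 lies on the plus strand of chromosome 2 (ENSG00000115107) and was read from STEAP3-AS1. Only 500 of the 3218 bp of STEAP3-AS1 exons, all opposite coding sequence, face a STEAP3 exon, and 2718 bp face introns. FTH1 lies on the minus strand of chromosome 11 (ENSG00000167996). BEST1, which encodes a chloride channel of the retinal pigment epithelium, has 8930 bp of exons, of which 1267 bp face FTH1 exons and 3306 bp lie outside FTH1. The NQO1 row thus samples only exonic sequence of its gene, whereas reads from introns of MAFG, STEAP3 and FTH1 also fall opposite their rows. Transcripts of BEST1 itself, of the antisense genes themselves and of the many near-identical FTH1 pseudogenes cannot be told apart from the genes named here, and FTH1 is the least certain of the 4.

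**Figure D1:**
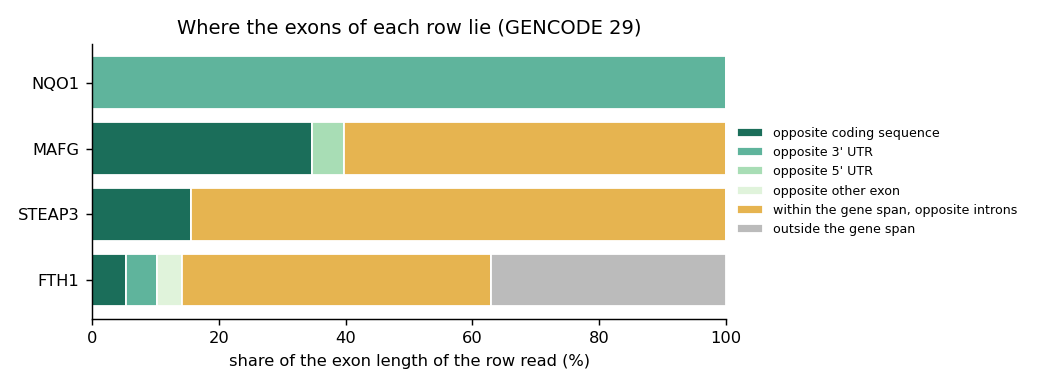
Share of the exon length (%) of the row used for each gene that faces exons of the gene on the other strand, faces its introns, or lies outside it, in GENCODE release 29. The NQO1 row faces exons over 100% of its length, the MAFG row over 39.8%, the STEAP3 row over 15.5% and the BEST1 row, used for FTH1, over 14.2%.

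The promoters are printed because NRF2 and the aryl hydrocarbon receptor act through short DNA elements that can be looked for by letter. The 250 bases before the start of the gene are given 5′ to 3′ on the strand of the gene, from the RefSeq promoter table on GRCh38.p14. They span chr16:69726561-69726810 on the minus strand for NQO1, chr17:81927736-81927985 on the minus strand for MAFG and chr2:119223584-119223833 on the plus strand for STEAP3. Of the 4 genes, 3 matched the table. Capitals mark the GC box GGGCGG, on either strand, and the E-box CACGTG.
NQO1: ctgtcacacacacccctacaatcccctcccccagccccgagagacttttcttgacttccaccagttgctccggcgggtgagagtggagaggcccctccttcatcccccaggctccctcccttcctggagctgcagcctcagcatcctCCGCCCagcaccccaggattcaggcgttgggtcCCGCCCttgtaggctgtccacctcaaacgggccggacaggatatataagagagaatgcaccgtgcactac
MAFG: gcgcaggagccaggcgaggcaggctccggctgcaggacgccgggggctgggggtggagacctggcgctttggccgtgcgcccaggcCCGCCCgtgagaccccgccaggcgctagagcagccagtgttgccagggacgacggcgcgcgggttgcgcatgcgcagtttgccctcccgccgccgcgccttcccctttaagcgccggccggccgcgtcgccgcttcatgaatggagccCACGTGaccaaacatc
STEAP3: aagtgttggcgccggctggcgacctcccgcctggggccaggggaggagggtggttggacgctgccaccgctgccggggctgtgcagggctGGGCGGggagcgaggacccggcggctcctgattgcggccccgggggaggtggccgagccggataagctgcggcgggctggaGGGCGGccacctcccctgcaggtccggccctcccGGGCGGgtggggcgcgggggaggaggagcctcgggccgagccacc
On both strands, the antioxidant response element core TGACNNNGC, the AP-1 element TGANTCA and the xenobiotic response element core GCGTG had no match in these 3 windows. Among all 27303 such windows, 11% held the first, 6.6% the second and 31.9% the third, and among the 31 windows of listed NRF2 target genes, 9 (29%) held TGACNNNGC. The windows hold only the bases next to the start, and these letters may lie further away. The GC box and the E-box were looked for after the windows had been read. NQO1 had GC boxes beginning 103 and 70 bases before the start, MAFG had 1 at 164 bases, and STEAP3 had 3, at 160, 79 and 45 bases. A GC box was in 42.3% of all windows. MAFG alone of the 3 had an E-box, 16 bases before the start, and 6.49% of all windows had one. The CAAT box CCAAT, in 33% of all windows, had no match in the 3. The windows held 61.6% G and C in NQO1, 73.2% in MAFG and 78.4% in STEAP3.

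After FEBJ, the quinone reductase NQO1 and the ferrireductase STEAP3 were lower, the small MAF protein MAFG was higher, and the FTH1 reading was slightly lower. After cynaroside, MAFG and the FTH1 reading were higher, NQO1 was slightly lower and STEAP3 did not pass the test. Against DMSO, all 3 members of the opposite-strand reading passed the threshold after FEBJ, 2 falling and 1 rising, and 70.5% of the 1443 tested genes did so, 35.8% rising and 34.7% falling. After cynaroside 2 of the 3 passed, against 41.7% of genes, 20.2% rising and 21.6% falling. Between FEBJ and cynaroside all 3 passed, against 69.5% of genes, 35.3% rising and 34.2% falling. The FTH1 row passed in all 3 comparisons. Of the 12012 deposited rows tested, 50.8% passed after FEBJ (26% rising, 24.8% falling), 45.4% after cynaroside (24.3% rising, 21.1% falling) and 41.9% between FEBJ and cynaroside (21.5% rising, 20.4% falling). With such broad change, the number of members called is no result about them, and their directions and sizes are given below. Calls rest on the quasi-likelihood test of edgeR, adjusted by Benjamini-Hochberg over all features tested, at an adjusted p of 0.05 or less.

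**Figure D2:**
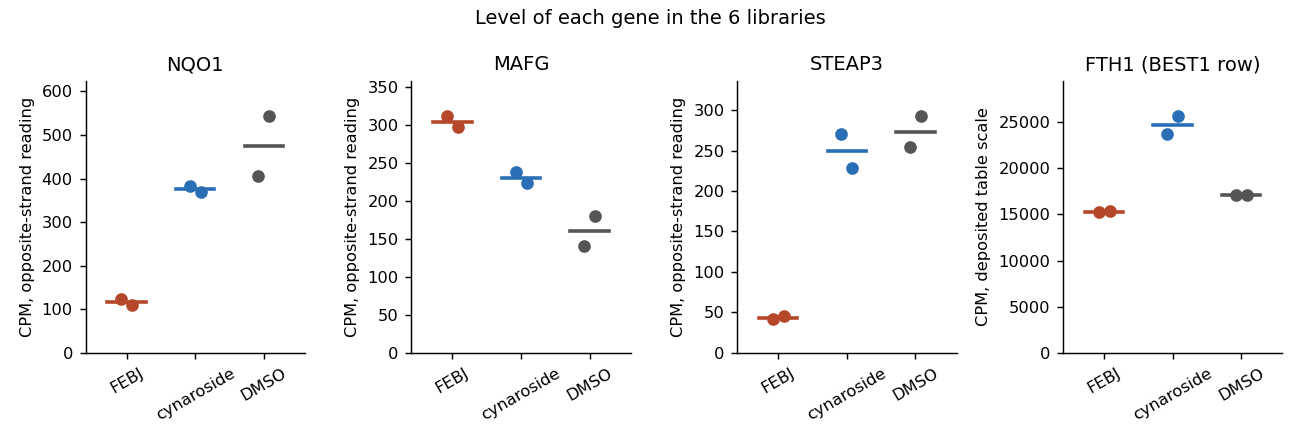
Level of each gene in the 6 libraries, in CPM, counts scaled to a library size of 1000000; points are libraries, horizontal lines are group means, and each panel has its own axis from 0. NQO1 and STEAP3 were lowest after FEBJ and MAFG was highest there, whereas the BEST1 row, used for FTH1, was highest after cynaroside.

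STEAP3, which prepares iron for its exit from the endosome, had the largest change of the 4. Its row held 42 and 65 counts in the FEBJ libraries, 181 and 448 in the cynaroside libraries and 250 and 419 in the DMSO libraries. Scaled to library size, these were 41.3 and 45.7 CPM after FEBJ, 270.5 and 227.9 CPM after cynaroside, and 254.3 and 292.2 CPM in DMSO. Both FEBJ libraries lay far below the other 4, and the cynaroside and DMSO libraries overlapped. The mean was 43.5 ± 3.15 CPM after FEBJ against 273.2 ± 26.8 CPM in DMSO (SD, n = 2 each), 6.25-fold lower, at a log2 fold change of -2.65 ± 0.20 (standard error; adjusted p = 8.85e-39, edgeR). Of the genes tested, 6.93% had a larger change in either direction. Against cynaroside, at 249.2 ± 30.2 CPM, STEAP3 was lower after FEBJ by a similar amount (log2 fold change -2.49 ± 0.20, adjusted p = 1.09e-33, edgeR). For cynaroside against DMSO the log2 fold change was -0.16 ± 0.16 (adjusted p = 0.461, edgeR), so that any shift there was not detectable at this depth.

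NQO1, which reduces quinones and shields the cell from redox cycling, gave the same order of groups, but with a space between cynaroside and DMSO. Its row held 126 and 156 counts after FEBJ, 256 and 728 after cynaroside, and 399 and 778 in DMSO. These were 123.8 and 109.7 CPM after FEBJ, 382.6 and 370.3 CPM after cynaroside, and 405.8 and 542.6 CPM in DMSO. The FEBJ libraries were well below the rest, and no group overlapped another, although DMSO 1 was close to the cynaroside libraries. NQO1 averaged 116.8 ± 9.96 CPM after FEBJ and 474.2 ± 96.7 CPM in DMSO, 4.11-fold lower (log2 fold change -2.04 ± 0.15, adjusted p = 3.54e-41, edgeR), and 13.5% of genes had a larger change. Against cynaroside, at 376.5 ± 8.70 CPM, the log2 fold change was -1.69 ± 0.15 (adjusted p = 5.98e-28, edgeR). The fall after cynaroside was small, at -0.35 ± 0.13 (adjusted p = 0.0242, edgeR), less than the gap between the DMSO libraries. It was -0.11 with an adjusted p of 0.656 without DMSO 2 (edgeR), also lost the call without cynaroside 1 or cynaroside 2, and missed the threshold in the wider reading (-0.30, adjusted p = 0.0585, edgeR).

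MAFG, the DNA-binding partner that NRF2 shares with BACH1 and NFE2L1, went the other way. Its row held 317 and 423 counts after FEBJ, 159 and 440 after cynaroside, and 139 and 258 in DMSO. The levels were 311.5 and 297.5 CPM after FEBJ, 237.7 and 223.8 CPM after cynaroside, and 141.4 and 179.9 CPM in DMSO. The groups did not overlap, and they ran from FEBJ through cynaroside to DMSO. MAFG averaged 304.5 ± 9.87 CPM after FEBJ against 160.6 ± 27.3 CPM in DMSO, 1.87-fold higher (log2 fold change 0.91 ± 0.16, adjusted p = 2.39e-08, edgeR). A change of this size was common, since 46.9% of genes had a larger one. After cynaroside it averaged 230.7 ± 9.78 CPM, a log2 fold change of 0.50 ± 0.16 over DMSO (adjusted p = 0.00647, edgeR), which missed the threshold without DMSO 1 (0.35, adjusted p = 0.16, edgeR). FEBJ exceeded cynaroside by 0.41 ± 0.15 (adjusted p = 0.0129, edgeR), but not in the wider reading, at 0.27 (adjusted p = 0.114, edgeR), nor without FEBJ 1, cynaroside 1 or cynaroside 2 (0.35 to 0.44 over the libraries left out).

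FTH1, which oxidizes and stores iron, was read from a very strong row. The BEST1 row held 38409 and 54065 counts after FEBJ, 34528 and 101620 after cynaroside, and 48536 and 70320 in DMSO. On the scale of the deposited table these were 15282 and 15334 CPM after FEBJ, 23689 and 25614 CPM after cynaroside, and 17154 and 17095 CPM in DMSO. The cynaroside libraries were highest and no group overlapped another. The FTH1 reading averaged 15308 ± 36.5 CPM after FEBJ and 17124 ± 41.7 CPM in DMSO (log2 fold change -0.16 ± 0.04, adjusted p = 0.00163, edgeR), and 92.4% of rows had a larger change. It averaged 24651 ± 1361 CPM after cynaroside, a log2 fold change of 0.53 ± 0.04 over DMSO (adjusted p = 3.31e-11, edgeR), and FEBJ against cynaroside gave -0.69 ± 0.04 (adjusted p = 2.27e-14, edgeR).

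The size of the FTH1 values depended on the scale. On the scale of the wider reading the BEST1 row stood at 24074 ± 228 CPM after FEBJ, 36053 ± 93.8 CPM after cynaroside and 33379 ± 322 CPM in DMSO. The log2 fold changes there were -0.47 ± 0.02 for FEBJ against DMSO and 0.11 ± 0.02 for cynaroside against DMSO. With all counts of the table as library size, a choice made after the data were seen, they were -0.28 and 0.06. That scaling moved the median of all deposited rows by -0.12 for FEBJ and by -0.47 for cynaroside against DMSO, and the FTH1 values moved with it. The sign of both FTH1 contrasts was the same under each of these scalings. Upper-quartile scaling and DESeq2, with all 6 libraries, gave -0.29 and -0.26 for FEBJ against DMSO. Libraries were left out only on the scale of the deposited table. There, leaving out any 1 FEBJ or DMSO library gave a fall after FEBJ of -0.19 to -0.14, which did not pass the threshold.

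**Figure D3:**
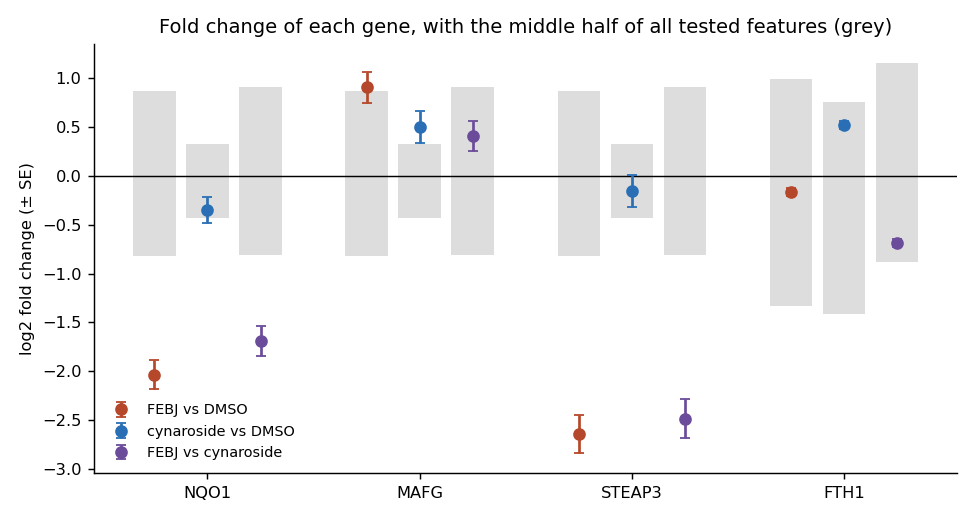
Log2 fold change of each gene, with its standard error, in the 3 comparisons; grey bars run from the lower to the upper quartile of all features tested in the same fit. NQO1 and STEAP3 after FEBJ lie below the grey bars, at -2.04 and -2.65, while the FTH1 values lie inside them.

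The own rows of the 4 genes were thin and did not always move with the opposite row. The NQO1 row held 7 and 8 counts after FEBJ, 3 and 24 after cynaroside, and 27 in each DMSO library. The groups FEBJ and DMSO did not overlap, but no comparison passed the threshold (FEBJ against DMSO -1.66 ± 0.77, adjusted p = 0.0732, edgeR). The STEAP3 row held 0 and 2 counts after FEBJ, 6 and 6 after cynaroside, and 16 and 19 in DMSO. It was 15.2-fold lower after FEBJ than in DMSO (95% interval 3.91 to 130.6, counting error only, adjusted p = 0.014, edgeR). The own rows of NQO1 and STEAP3 had enough counts to be tested only through the DMSO libraries. Their direction against DMSO was thus fixed by the filter on low counts and adds nothing to the opposite rows. The MAFG row held 19 and 14 counts after FEBJ, 0 and 2 after cynaroside, and 33 and 36 in DMSO. It was thus lowest in the cynaroside libraries, 27.0-fold below DMSO (95% interval 7.19 to 227; adjusted p = 0.000385, edgeR), where the opposite row was higher than in DMSO. The FTH1 row held 102 and 141 counts after FEBJ, 80 and 225 after cynaroside, and 681 and 1199 in DMSO. Its level was 40.3 ± 0.42 CPM after FEBJ, 55.8 ± 1.29 CPM after cynaroside and 266.1 ± 35.9 CPM in DMSO. The FTH1 row therefore fell after FEBJ (log2 fold change -2.73 ± 0.15, adjusted p = 3.77e-15, edgeR) and after cynaroside (-2.25 ± 0.15, adjusted p = 1.28e-12, edgeR), against a modest fall and a rise of the BEST1 row.

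As a share of the opposite row, the own row was largest in DMSO for MAFG, STEAP3 and FTH1. For MAFG it was 5.99 and 3.31% after FEBJ, 0 and 0.455% after cynaroside, and 23.7 and 13.95% in DMSO. For FTH1 it was 0.266 and 0.261% after FEBJ, 0.232 and 0.221% after cynaroside, and 1.40 and 1.71% in DMSO. For STEAP3 it was 0 and 3.08% after FEBJ, 3.32 and 1.34% after cynaroside, and 6.40 and 4.54% in DMSO. In these 3 genes, both DMSO libraries lay above the other 4. For NQO1 it was 5.56 and 5.13% after FEBJ, 1.17 and 3.30% after cynaroside, and 6.77 and 3.47% in DMSO, and FEBJ and DMSO overlapped. The part of this shift in the results was not tested.

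**Figure D4:**
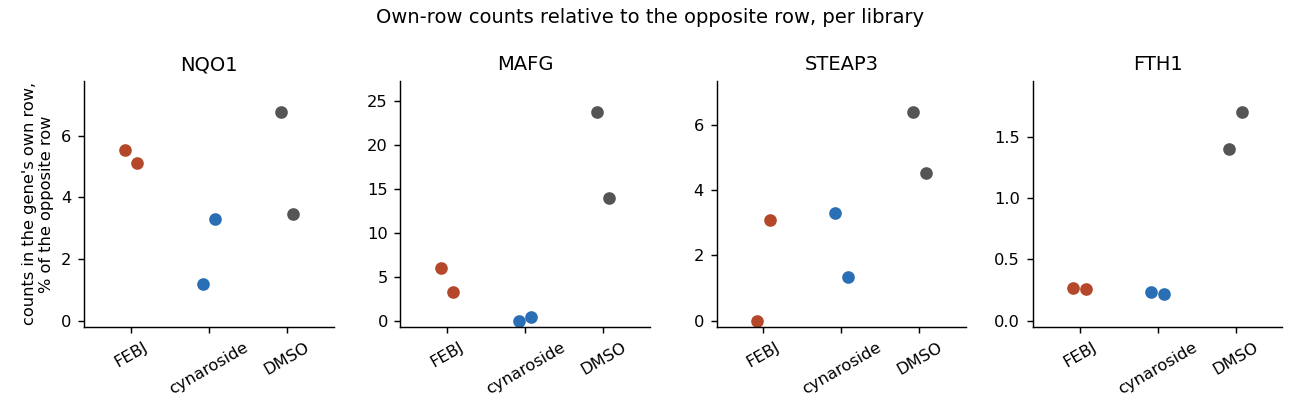
Counts in the own row of each gene as a percentage of the counts in its opposite row, per library and group. For MAFG, STEAP3 and FTH1 both DMSO libraries lie above the other 4 libraries, with 23.7 and 13.95% in DMSO for MAFG.

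The genes whose levels ran closest to each member were found by the root mean square difference of log2(CPM + 1) over the 6 libraries, each gene centred on its DMSO mean, among genes of at least 20 CPM. For NQO1, of 1278 other genes, these were GREM1, a secreted antagonist of BMP ligands (0.13), and the transcription factors TFAP2A (0.13) and NR2F1 (0.16). GREM1 averaged 342.7 CPM after FEBJ, 1073 CPM after cynaroside and 1300 CPM in DMSO. For MAFG they were the zinc finger factors ZNF384 (0.11) and CASZ1 (0.13) and the membrane protein gene TMEM254 (0.13). ZNF384 averaged 3090 CPM after FEBJ, 2176 CPM after cynaroside and 1532 CPM in DMSO. For STEAP3 they were CRIM1, a transmembrane BMP-binding protein (0.15), FHL2, a LIM-domain protein (0.18), and SPCS3, a signal peptidase subunit (0.18). SPCS3 averaged 44.5 CPM after FEBJ, 267.4 CPM after cynaroside and 273.5 CPM in DMSO, which is close to STEAP3 itself. For FTH1, in the wider reading with 1916 other genes, they were CFL1, the actin-severing protein cofilin (0.03), RBM15B (0.04) and MTMR9 (0.05).

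The wider NRF2 programme was looked at next. Of 42 listed NRF2 target genes, 5 could be tested in the opposite-strand reading, and after FEBJ 3 rose (MAFG, ALDH3A1 and GSTM3) and 2 fell (NQO1 and CBR1). ALDH3A1 and GSTM3 had enough counts to be tested through the FEBJ libraries alone, so their direction was fixed by the filter on low counts and supports no count over the list. After cynaroside MAFG rose, NQO1 fell and 3 did not pass. Of all genes tested, 35.8% rose and 34.7% fell after FEBJ, and 20.2% rose and 21.6% fell after cynaroside. CBR1, a carbonyl reductase, averaged 1195 ± 86.0 CPM after FEBJ, 1427 ± 41.3 CPM after cynaroside and 1411 ± 132 CPM in DMSO, a log2 fold change of -0.24 ± 0.07 for FEBJ (adjusted p = 0.00051, edgeR). ALDH3A1, an aldehyde dehydrogenase also driven by the aryl hydrocarbon receptor, held 12 and 32 counts after FEBJ, 0 and 0 after cynaroside, and 0 and 2 in DMSO. Nearly all of its counts lay in the FEBJ libraries, 21.8-fold above DMSO (95% interval 5.69 to 185.6, counting error only) and at least 15.8-fold above cynaroside, against a floor of 3 counts over the group. GSTM3, a glutathione transferase with close relatives in the genome, held 15 and 25 counts after FEBJ, 0 and 0 after cynaroside, and 1 and 0 in DMSO. It was 39.6-fold above DMSO (95% interval 6.72 to 1604) and at least 14.4-fold above cynaroside.

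The wider reading added PRDX1 and FTH1 to the NRF2 targets, for 7 in all. After FEBJ 3 of the 7 rose, ALDH3A1 and GSTM3 among them, and 4 fell. Of the 2288 genes tested 69.6% passed, 35.3% rising and 34.3% falling. PRDX1, a thiol peroxidase read from the MMACHC row, averaged 1222 ± 24.5 CPM after FEBJ, 1930 ± 83.3 CPM after cynaroside and 2426 ± 94.4 CPM in DMSO. Both falls passed, at -0.99 ± 0.05 after FEBJ (adjusted p = 3.22e-30, edgeR) and -0.34 ± 0.05 after cynaroside (adjusted p = 1.95e-08, edgeR). After cynaroside, 2 of the 7 rose, 1 fell and 4 did not pass, beside 44.5% of genes called, 21.8% rising and 22.7% falling. Between FEBJ and cynaroside, ALDH3A1 and GSTM3 rose, 4 fell and 1 did not pass, beside 68.9% of genes called, 34.6% rising and 34.3% falling. MMACHC encodes a protein of its own, and its transcripts cannot be told apart from this reading of PRDX1.

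**Figure D5:**
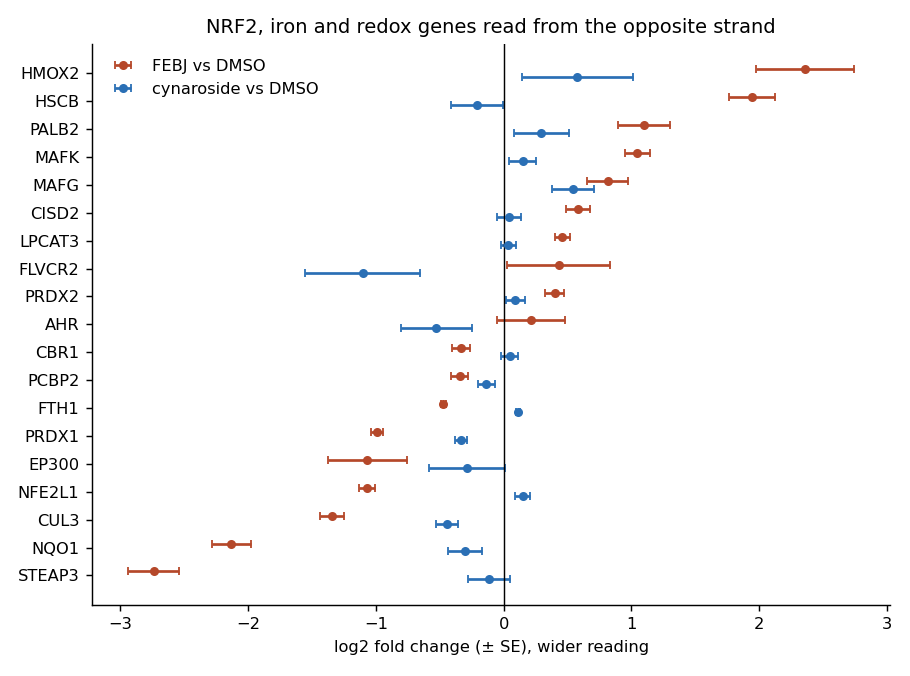
Log2 fold change, with its standard error, of the listed NRF2, iron, heme and redox genes that could be tested in the wider reading, after FEBJ and after cynaroside against DMSO. ALDH3A1 and GSTM3, with 0 counts after cynaroside and 2 and 1 in DMSO, are not drawn because their fitted values depend on the prior count; STEAP3 and NQO1 have the lowest values after FEBJ, at -2.74 and -2.13.

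Among 20 listed regulators and partners of NRF2, 5 could be tested in the opposite-strand reading. After FEBJ 2 rose (MAFG and PALB2) and 3 fell (CUL3, NFE2L1 and EP300), with a median of -0.97. Of all 1443 genes tested, 35.8% rose and 34.7% fell, with a median of 0.05. CUL3, the scaffold of the ligase that degrades NRF2, averaged 460.3 ± 42.3 CPM after FEBJ, 776.0 ± 97.6 CPM after cynaroside and 1101 ± 27.0 CPM in DMSO. It fell after FEBJ (-1.25 ± 0.09, adjusted p = 1.22e-41, edgeR) and after cynaroside (-0.48 ± 0.09, adjusted p = 2.17e-07, edgeR), and was lower after FEBJ than after cynaroside (-0.77 ± 0.09, adjusted p = 5.07e-16, edgeR). NFE2L1, a relative of NRF2 that also pairs with MAFG, averaged 914.2 ± 52.0 CPM after FEBJ, 1940 ± 23.1 CPM after cynaroside and 1800 ± 26.5 CPM in DMSO, and fell after FEBJ (-0.97 ± 0.06, adjusted p = 7.66e-50, edgeR) but was not called after cynaroside (0.11 ± 0.06, adjusted p = 0.146, edgeR). PALB2, a BRCA2 partner that also binds KEAP1, averaged 205.4 ± 13.9 CPM after FEBJ, 105.8 ± 7.96 CPM after cynaroside and 90.6 ± 18.6 CPM in DMSO (1.20 ± 0.20, adjusted p = 6.83e-09, edgeR). EP300, an acetyltransferase that acts as a coactivator, averaged 35.0 ± 2.24 CPM after FEBJ, 55.6 ± 3.81 CPM after cynaroside and 69.4 ± 8.35 CPM in DMSO (-0.97 ± 0.32, adjusted p = 0.00384, edgeR). The wider reading added MAFK, a second small MAF protein read from the TMEM184A row, at 604.2 ± 1.32 CPM after FEBJ, 326.2 ± 13.6 CPM after cynaroside and 293.8 ± 26.1 CPM in DMSO. MAFK rose after FEBJ (1.05 ± 0.10, adjusted p = 9.85e-16, edgeR) and was not called after cynaroside (0.15 ± 0.10, adjusted p = 0.249, edgeR). On the scale of the deposited table the TMEM184A row was called in both, at 1.35 ± 0.10 after FEBJ (adjusted p = 4.11e-12, edgeR) and 0.57 ± 0.11 after cynaroside (adjusted p = 7.62e-05, edgeR), so the cynaroside call depends on the scale. TMEM184A is protein-coding, and its own transcripts cannot be told apart from this reading of MAFK.

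A panel of further NRF2 genes could be seen only in deposited rows, whose strand is in doubt. NFE2L2, which encodes NRF2, had 1522 and 1426 CPM after FEBJ, 2013 and 2172 CPM after cynaroside, and 2696 and 2895 CPM in DMSO. The groups did not overlap, and both falls passed (-0.92 ± 0.06 after FEBJ, adjusted p = 3.78e-13, and -0.42 ± 0.06 after cynaroside, adjusted p = 3.88e-06, edgeR). The rows opposite NFE2L2, an antisense gene and AGPS, held at most 266 counts each in a library, less than the NFE2L2 row itself, so this gene does not follow the pattern of the 4 members, and which transcripts its row counts was not tested. KEAP1 held 0 and 8 counts after FEBJ, 0 and 4 after cynaroside, and 14 and 30 in DMSO. TXNRD1, thioredoxin reductase, held 4 and 7 counts after FEBJ, 0 and 8 after cynaroside, and 41 and 63 in DMSO. Both rows were near 0 in the treated libraries, and KEAP1 passed after cynaroside (-3.12 ± 1.21, adjusted p = 0.0371, edgeR) and not after FEBJ (-2.28 ± 1.09, adjusted p = 0.0816, edgeR). TXNRD1 passed after FEBJ (-3.02 ± 0.74, adjusted p = 0.00123, edgeR) and cynaroside (-3.44 ± 0.78, adjusted p = 0.000826, edgeR). The KEAP1 and TXNRD1 rows had enough counts to be tested through the DMSO libraries alone, so their direction was fixed by the filter on low counts. HMOX1, heme oxygenase, held 2 and 25 counts after FEBJ, 0 and 0 after cynaroside, and 8 and 15 in DMSO. It was at least 5.99-fold lower after cynaroside than in DMSO, against a floor of 3 counts over the group (adjusted p = 0.0136, edgeR). With 0 counts after cynaroside, the HMOX1 row could be tested only through its FEBJ and DMSO counts, so this direction was also fixed by the filter. GCLM, a subunit of the enzyme that starts glutathione synthesis, held 2 and 5 counts after FEBJ, 0 and 0 after cynaroside, and 12 and 7 in DMSO, and was too low to test. MAFF, the third small MAF protein, averaged 11.6 ± 1.71 CPM after FEBJ, 30.1 ± 3.77 CPM after cynaroside and 12.2 ± 7.68 CPM in DMSO, and rose after cynaroside (1.35 ± 0.41, adjusted p = 0.00917, edgeR). Its DMSO libraries lay apart, at 17.7 and 6.81 CPM. With all counts as library size, the listed regulators called higher after cynaroside in deposited rows dropped from 3 to 1, so the MAFF call may depend on the scale.

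For SQSTM1 and SLC7A11 the opposite row also faces a second gene and is in neither reading, and the tests of these rows were added after their values had been seen. SQSTM1 encodes p62, an autophagy receptor that sequesters KEAP1, and the MRNIP row faces it over 1582 bp and faces MRNIP-DT over 194 bp. MRNIP is protein-coding, so its own transcripts cannot be told apart from those of SQSTM1. The MRNIP row held 23157 and 31338 counts after FEBJ, 2465 and 7455 after cynaroside, and 3814 and 5474 in DMSO. On the deposited scale it averaged 9051 ± 230 CPM after FEBJ, 1785 ± 133 CPM after cynaroside and 1339 ± 12.2 CPM in DMSO. It was 6.76-fold higher after FEBJ (log2 fold change 2.76 ± 0.06, adjusted p = 1.48e-24, edgeR). The value after cynaroside, 0.42 ± 0.06, was -0.05 with all counts as library size and -0.04 on the scale of the opposite-strand reading. The row of SQSTM1 itself averaged 410.6 ± 25.3 CPM after FEBJ, 503.7 ± 52.6 CPM after cynaroside and 336.5 ± 7.96 CPM in DMSO. SLC7A11 is the cystine carrier that feeds glutathione synthesis, and SLC7A11-AS1 faces it over 865 bp and faces LINC00616 over 183 bp. The SLC7A11-AS1 row held 8 and 8 counts after FEBJ, 197 and 605 after cynaroside, and 134 and 217 in DMSO. This row averaged 2.73 ± 0.65 CPM after FEBJ, 143.8 ± 12.3 CPM after cynaroside and 50.1 ± 3.81 CPM in DMSO. It was lower after FEBJ (-4.22 ± 0.30, adjusted p = 1.13e-12, edgeR) and higher after cynaroside (1.53 ± 0.19, adjusted p = 1.33e-07, edgeR), and the rise was 1.05 to 1.38 under the other 4 scalings. The SLC7A11 row itself did not pass against DMSO after either treatment, with adjusted p of 0.645 after FEBJ and 0.0886 after cynaroside (edgeR). Between FEBJ and cynaroside the rows went opposite ways. The SLC7A11 row was higher after FEBJ (1.43 ± 0.55, adjusted p = 0.0365, edgeR), and SLC7A11-AS1 was lower (-5.75 ± 0.28, adjusted p = 2.59e-16, edgeR). Which row reads SLC7A11 was not tested.

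Few iron genes could be read from the opposite strand. Of 33 listed genes of iron uptake, storage and export, 2 were tested, STEAP3 and FLVCR2, a transporter of the FLVCR family. FLVCR2 held 66 and 52 counts after FEBJ, 4 and 41 after cynaroside, and 23 and 64 in DMSO. It was not called after FEBJ (0.52 ± 0.39, adjusted p = 0.228, edgeR) and was lower after cynaroside (-1.15 ± 0.44, adjusted p = 0.0255, edgeR), where the libraries held 5.98 and 20.9 CPM. The wider reading added FTH1 and PCBP2, an RNA-binding protein that also delivers iron to ferritin. After FEBJ 3 of these 4 fell (STEAP3, FTH1 and PCBP2), none rose, and the median was -0.41. Of all 2288 genes tested in that reading, 34.3% fell and 35.3% rose, with a median of 0.02. The 4 are a small part of the 33 listed and give no statement on iron genes as a whole. PCBP2 averaged 739.5 ± 10.4 CPM after FEBJ, 854.6 ± 4.57 CPM after cynaroside and 939.6 ± 27.4 CPM in DMSO (FEBJ against DMSO -0.34 ± 0.07, adjusted p = 5.02e-06, edgeR). Like FTH1, PCBP2 was read from a protein-coding row, whose own transcripts cannot be told apart from it. In the deposited rows, FTL, the ferritin light chain, held 26 and 30 counts after FEBJ, 4 and 34 after cynaroside, and 230 and 247 in DMSO. TFRC, the transferrin receptor, held 1 and 3 counts after FEBJ, 0 and 8 after cynaroside, and 29 and 43 in DMSO. The FTL row fell after FEBJ and after cynaroside, by 2.91 ± 0.34 and 3.41 ± 0.36 on the log2 scale, as did the own row of FTH1. TFRC was also called lower after both. Its row had enough counts to be tested through the DMSO libraries alone, so this direction was fixed by the filter on low counts.

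Protein-coding rows with no exon opposite were lower on the whole after both treatments. Among these deposited rows, 11 NRF2 target genes had a median of -1.10 after FEBJ and -2.02 after cynaroside, and all 3911 such rows tested had medians of -1.02 and -1.40. Of the 11, 7 fell after FEBJ, as did 34.5% of such rows, and 9 fell after cynaroside, as did 39% of such rows. For the 10 iron genes of that kind the medians were -0.50 and -1.29. Over all 23 NRF2 target rows tested as deposited, 2 rose and 9 fell after FEBJ, beside 26% and 24.8% of all rows tested, and 2 rose and 12 fell after cynaroside, beside 24.3% and 21.1%. These counts depended on the scale: with upper-quartile scaling 0 rose and 11 fell after FEBJ, and with all counts as library size 1 rose and 17 fell after cynaroside. The filter on low counts also let in rows through their DMSO counts alone, such as TXNRD1 and TFRC, and fixed their direction. The counts of falls therefore support no statement about the lists. The same filter acted on all rows, and its part in these shares was not tested.

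Neighbouring pathways gave mixed counts. None of the 25 listed heme and iron-sulfur cluster genes had a non-coding opposite row, and 3 were tested in the wider reading. All 3 rose after FEBJ, as did 35.3% of all genes in that reading, and none passed after cynaroside, where 44.5% of genes did. HMOX2, the constitutive heme oxygenase read from the NMRAL1 row, held 90 and 111 counts after FEBJ, 19 and 36 after cynaroside, and 18 and 18 in DMSO (FEBJ against DMSO 2.36 ± 0.38, adjusted p = 1.17e-07, edgeR). HSCB, a co-chaperone of iron-sulfur cluster assembly read from the CHEK2 row, averaged 254.3 ± 16.3 CPM after FEBJ, 54.2 ± 14.5 CPM after cynaroside and 66.4 ± 5.94 CPM in DMSO (1.95 ± 0.18, adjusted p = 2.64e-16, edgeR). CISD2, an iron-sulfur protein read from the SLC9B1 row, averaged 560.0 ± 17.2 CPM after FEBJ, 383.1 ± 21.1 CPM after cynaroside and 374.0 ± 13.8 CPM in DMSO (0.58 ± 0.09, adjusted p = 9.33e-08, edgeR). NMRAL1, CHEK2 and SLC9B1 are protein-coding, so these readings share the doubt on FTH1.

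Of 34 genes of glutathione, thioredoxin and peroxide defence, 2 were tested in the opposite-strand reading, GSTM3, which only its FEBJ counts made testable, and PRDX2. PRDX2, a cytosolic peroxiredoxin, rose after FEBJ, as did 35.8% of genes. It averaged 1323 ± 57.7 CPM after FEBJ, 965.1 ± 71.2 CPM after cynaroside and 940.5 ± 13.4 CPM in DMSO (0.49 ± 0.07, adjusted p = 7.8e-11, edgeR). PRDX2 was thus higher after FEBJ where its relative PRDX1 was lower. Of 23 ferroptosis genes, 1 was tested in the wider reading, LPCAT3, which loads polyunsaturated fatty acids into phospholipids. It averaged 1407 ± 32.5 CPM after FEBJ, 1055 ± 47.9 CPM after cynaroside and 1025 ± 52.0 CPM in DMSO (FEBJ against DMSO 0.46 ± 0.06, adjusted p = 1.12e-10, edgeR). LPCAT3 was read from a protein-coding row, whose own transcripts cannot be told apart from it. Of 10 aryl hydrocarbon receptor genes, 3 were tested, NQO1, ALDH3A1 and AHR, and the first 2 are described above. AHR, the receptor itself, averaged 90.9 ± 4.81 CPM after FEBJ, 46.9 ± 15.6 CPM after cynaroside and 74.4 ± 21.4 CPM in DMSO, and was not called against DMSO after FEBJ (0.31 ± 0.26, adjusted p = 0.281, edgeR) or cynaroside (-0.56 ± 0.28, adjusted p = 0.0861, edgeR).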

How the data were processed

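Total RNA of LX-2 cells was sequenced in 6 libraries. Per the submitters' processing notes, the authors used CASAVA 1.7, HISAT2, HTSeq 0.12.4, DESeq2 1.38.0 and the hg19 build, and deposited raw counts per gene row for each library. Summary rows, such as the 87.4 to 88.3% of counts outside features, entered neither library sizes nor tests. Identifiers of 62700 of 62754 rows matched a symbol.

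GENCODE release 29 (GRCh38) gave the overlaps and held 58261 of the rows; the builds were not reconciled, so no positions of genes from it are given. An opposite row had to hold at least as many counts as the own row of the gene. Tests used edgeR 4.0.16 under R 4.3.3 (filterByExpr, TMM, 3 group means, 3 residual degrees of freedom, glmQLFTest, Benjamini-Hochberg adjustment). CPM are counts over TMM library sizes, levels are mean ± SD (n = 2), and log2 fold changes carry standard errors with a prior count of 0.125. Intervals are 95% exact binomial and, like floors, cover counting error only. The steps were tested on simulated data.

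The members and lists were chosen with earlier results of these data known. Named genes were the members, up to 6 tested members per list, an 11-gene panel, and the 3 genes closest to each member; 1 listed gene is not reported here and was left out of the list counts. DESeq2 1.42.0, other scalings, filters, overlaps and readings, and leaving out libraries were tried as alternatives.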

Additional observations from a re-analysis of the deposited data

How the results depend on the processing

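For the 12 comparisons of the 4 genes, 231 alternatives were run: 210 kept direction and call, 19 lost the call and 2 turned the direction. NQO1 and STEAP3 after FEBJ kept both under every alternative run, at -2.24 to -1.82 and -2.75 to -2.43, as did MAFG after FEBJ against DMSO (0.74 to 1.13). Between FEBJ and cynaroside, NQO1 (-1.94 to -1.58), STEAP3 (-2.74 to -2.38) and FTH1 (-0.80 to -0.34) also kept both. FTH1 after cynaroside against DMSO did too. The lost calls and turned signs lie in the other comparisons, which are small changes, and their cause was not tested. For MAFG, FEBJ against cynaroside, the call was lost with upper-quartile scaling (0.318), DESeq2 (0.396), the wider reading (0.272), the opposite row fitted among all deposited rows (0.159) and a minimum overlap of 200 bp (0.321); leaving out 1 library gave 0.346 to 0.444. For NQO1, cynaroside against DMSO, it was lost with DESeq2 (-0.328) and the wider reading (-0.304), and the sign turned among all deposited rows (0.118, adjusted p = 0.51, edgeR); leaving out 1 library gave -0.533 to -0.114. STEAP3, cynaroside against DMSO, uncalled throughout, also turned there (0.306), and leaving out 1 library gave -0.25 to -0.019. FTH1, FEBJ against DMSO, lost the call with a filter of 1 CPM (-0.211) and gave -0.196 to -0.142 with 1 library left out. MAFG, cynaroside against DMSO, gave 0.348 to 0.697 with 1 library left out, and 0.966 with the opposite row fitted among all deposited rows. FTH1 after cynaroside against DMSO ranged from 0.06 to 0.61. Counts of features called moved by less than 1.5 times: 895 to 1033, 462 to 618 and 913 to 1021 in the opposite-strand reading.

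Same-numbered libraries did not deviate together (correlations of -0.0064, -0.012 and 0.0015). With the replicate block, NQO1 and STEAP3 after FEBJ against DMSO stood at -2.03 and -2.65, MAFG at 0.91 and FTH1 at -0.16, and the block changed no call. Depth limits STEAP3 most, with 42 and 65 counts in the FEBJ libraries.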
